A study of Homo sapiens with 6 samples.

Results

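RN7SL1, RN7SL2, RN7SK, RMRP, RPPH1, VTRNA1-1, VTRNA1-2 and VTRNA1-3 are human genes for short structured RNAs made by RNA polymerase III (Pol III). They encode the RNA of the signal recognition particle (7SL RNA, from RN7SL1 and RN7SL2), the 7SK RNA, the RNAs of RNase MRP and RNase P, and the vault RNAs. These 8 genes, of 67060 in the table, were listed by symbol and were chosen by their counts in the same libraries, after a difference between Flag-ERRg and GFP cells had been seen in RN7SL1. Their own values are therefore given as a description, with no test. In the deposited counts 4 of the 8 were listed at 0 in all 6 libraries, 4 had counts, and 2 (RN7SL1 and VTRNA1-3) passed the filter on low counts.

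The cells were SH-SY5Y, a human catecholaminergic neuroblastoma line that the labels call neuronal progenitors. Control cells were infected with an adenovirus carrying GFP under the CMV promoter (GFP, replicates 1, 3 and 4), and the others with an adenovirus carrying 3xFlag-tagged Esrrg, the mouse coding sequence of the nuclear receptor ERRγ, under the same promoter (Flag-ERRg, replicates 2, 3 and 4). All libraries came from 0.5 µl of virus and 24 h, so both groups carried an adenovirus and there was no uninfected group. Total RNA was depleted of ribosomal RNA and made into libraries that keep the strand. The labels name 1 cell line and do not say whether the replicates were separate cultures, so p-values measure the spread between these libraries only. Human ESRRG, which could also collect reads of the mouse coding sequence, had 83.5, 90.3 and 86.8 normalized CPM (counts per 1000000 counts) in GFP and 569, 771 and 777 CPM in Flag-ERRg, so it matched the labels in all 6 libraries.

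Pol III makes transfer RNAs, 5S ribosomal RNA and a small set of other short RNAs that work inside protein complexes. 7SL RNA is the scaffold of the particle that brings ribosomes making secreted and membrane proteins to the endoplasmic reticulum. 7SK RNA holds the elongation kinase P-TEFb inactive, RNase P trims the 5′ ends of transfer RNAs, RNase MRP cuts precursor ribosomal RNA, and vault RNAs sit in the large cytoplasmic vault particle. Vault RNA genes carry their A box and B box promoter elements inside the RNA, whereas the promoters of RN7SK, RMRP and RPPH1 lie upstream of it.

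RN7SL1, RN7SL2 and RN7SL3 are 3 full-length copies of 7SL on chromosome 14, each a single-exon gene, and the reads that tell them apart decide what each row of the table can hold. RN7SL2 differed from RN7SL1 at 4 of 299 positions, an identity of 98.7%, and the longest stretch without a difference was 205 bases. RN7SL3 differed from RN7SL1 at 7 positions, an identity of 97.7%, with a longest shared stretch of 123 bases. Of all windows of 64 bases, 21.6% in RN7SL1, 14.8% in RN7SL2 and 74.6% in RN7SL3 occurred once in the genome. With windows of 128 bases these shares were 29.7%, 20.3% and 100%. The assignment of 7SL reads to a copy is therefore uncertain, and the length of the reads is not given in the sources used here.

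The 3 vault RNAs are shown because they are short, unique and alike in their control elements. The capitals mark the A box core (TNGCNNAGNGG) near the 5′ end and the B box core (GTTCGANNCC) further in, searched on the sense strand.
VTRNA1-1: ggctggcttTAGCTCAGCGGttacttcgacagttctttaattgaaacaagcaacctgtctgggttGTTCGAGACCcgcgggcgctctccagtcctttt
VTRNA1-2: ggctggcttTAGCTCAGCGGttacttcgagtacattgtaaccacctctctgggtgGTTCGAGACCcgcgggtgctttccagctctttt
VTRNA1-3: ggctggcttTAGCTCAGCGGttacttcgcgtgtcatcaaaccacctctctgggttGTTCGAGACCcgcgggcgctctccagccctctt
On GRCh38 they lie on the plus strand of chromosome 5, VTRNA1-1 at chr5:140711276-140711373, VTRNA1-2 at chr5:140718926-140719013 and VTRNA1-3 at chr5:140726159-140726246. The A box core stood at positions 10 to 20 of all 3 RNAs, and the B box core at 66 to 75 of VTRNA1-1 and at 56 to 65 of the other two. The same search covered the first 98 bases of 60382 genes of the table that matched GENCODE 44 on the nuclear chromosomes. The B box core occurred in 0.128%, the A box core in 0.797% and both in 4 genes, the 3 vault RNA genes among them. These shares hold for the genes searched only. Identity between pairs of vault RNAs was 81.6% to 87.6% and the longest shared stretch 28 to 34 bases. Every window of 64 bases in them occurred once in the genome, so their reads can be told apart over that length.

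The sequences around the start sites were also searched, from 250 bases upstream to 50 bases downstream. The estrogen-related receptor response element, written TNAAGGTCA and searched on both strands, was in none of these 8 windows nor in that of RN7SL3, and it was in 334 of 35116 RefSeq promoters of the same length (0.951%). TATAA between 40 and 11 bases upstream of the start was found at RMRP, RPPH1, VTRNA1-1 and VTRNA1-2, and in 4.06% of RefSeq promoters. These matches are a description of letters only.

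One library of the treated group stood apart. Reads assigned to genes were 24969759 to 29700980 in GFP, 26513620 in Flag-ERRg 2, and 39723262 and 40859666 in Flag-ERRg 3 and 4. Reads that fell on no annotated feature took 51.3% to 52.2% of all reads in GFP, 46.6% in Flag-ERRg 2, 31.6% in Flag-ERRg 3 and 29.5% in Flag-ERRg 4. Reads called ambiguous between genes took 4.55% to 4.87% in GFP and 5.69%, 9.84% and 9.79% in Flag-ERRg, and reads aligned to several places 7.16% to 7.41% and 9.33%, 12.7% and 13.0%. In all 3 classes Flag-ERRg 2 lay outside the GFP range but nearer to it than Flag-ERRg 3 and 4 did. The adrenergic markers HAND2 (367 CPM), GATA3 (123 CPM) and DBH (11.5 CPM) were present in the GFP libraries, and CHGA was listed at 0. Of 9 adrenergic markers tested 1 rose (PHOX2A, by 0.81 on the log2 scale) and 3 fell (DBH by 2.64, GATA2 by 1.08 and STMN2 by 0.68). At the same rule, an adjusted p below 0.05 and at least 1.5-fold, 17.3% of all genes tested were higher and 16.8% lower. The summed level of the 10 adrenergic markers was 894 to 955 CPM in GFP and 634 to 825 CPM in Flag-ERRg, with no overlap. Of 14 markers of other cell types the mesenchymal ones were also present (COL3A1 2598 CPM, PRRX1 410 CPM, COL1A1 389 CPM and DCN 78.2 CPM), FOSL1 and PECAM1 rose and DCN fell, CD3E and KRT5 were listed at 0, and each immune, epithelial and endothelial marker was below 3 CPM. The summed level of all 14 was 3438 to 3551 CPM in GFP and 3312 to 3552 CPM in Flag-ERRg, so it overlapped between the groups. The part of these read classes and markers in the results below was not tested.

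**Figure D1:**
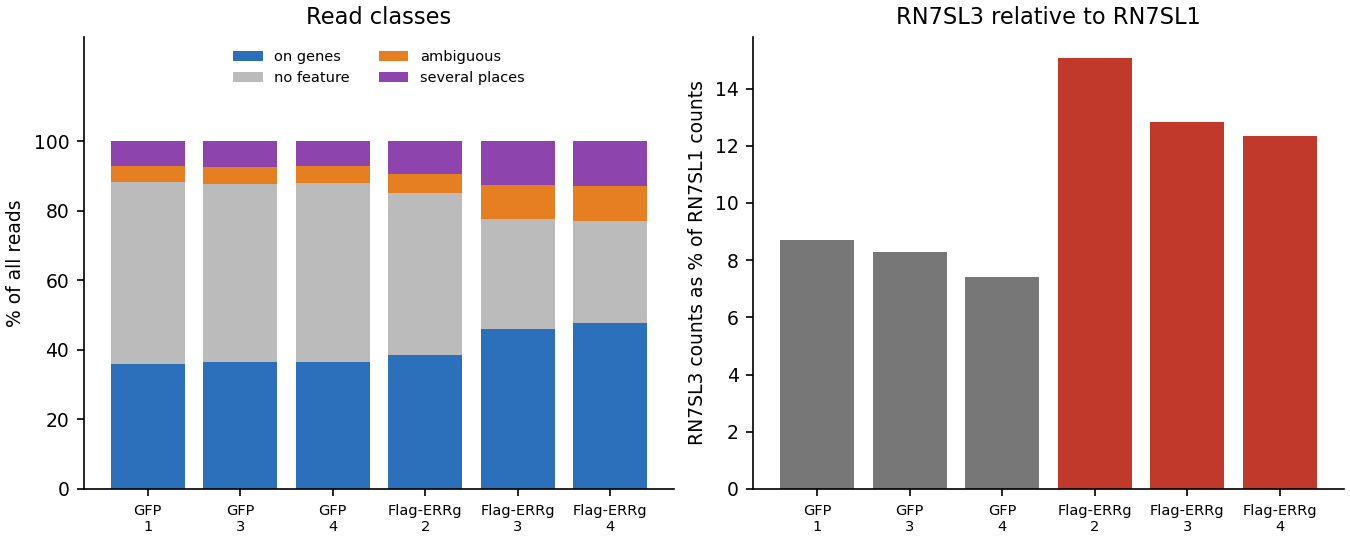
Left, the share of all reads in each library that was assigned to genes, to no feature, to more than 1 gene (ambiguous) or to several places. Right, RN7SL3 counts as a percentage of RN7SL1 counts in each library (gray, GFP; red, Flag-ERRg). The no-feature share falls from 52.2% in GFP 1 to 29.5% in Flag-ERRg 4, and the RN7SL3 percentage is 7.41% to 8.72% in GFP and 12.3% to 15.1% in Flag-ERRg.

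RN7SL1 (ENSG00000276168), the 7SL RNA gene with the most counts in the table, was higher in every Flag-ERRg library than in every GFP library. Its counts were 140146, 193477 and 225966 in GFP replicates 1, 3 and 4, and 266414, 1294856 and 1189885 in Flag-ERRg replicates 2, 3 and 4. On the scale of normalized CPM these were 4964, 6246 and 6817 in GFP (6009 ± 949, SD, n = 3) and 9951, 38412 and 34874 in Flag-ERRg (27746 ± 15512, SD, n = 3). Flag-ERRg 2 was 1.66 times the GFP mean, whereas Flag-ERRg 3 and 4 together were 6.10 times it, so the ratio of group means, 4.62, was set by 2 of the 3 libraries. RN7SL1 took 0.561%, 0.692% and 0.761% of the reads on genes in GFP and 1.00%, 3.26% and 2.91% in Flag-ERRg. The fitted log2 fold change was 2.21 (SE 0.41). It was 2.72 without Flag-ERRg 2, and 0.15 (SE 0.17) when the no-feature share of each library entered the fit as a covariate, a share that itself separated the groups. Among 24500 genes tested, 151 (0.616%) had a larger log2 fold change than RN7SL1 in the fit without the covariate. RN7SL1 was chosen for its difference on this contrast, so nothing is read from that rank.

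**Figure D2:**
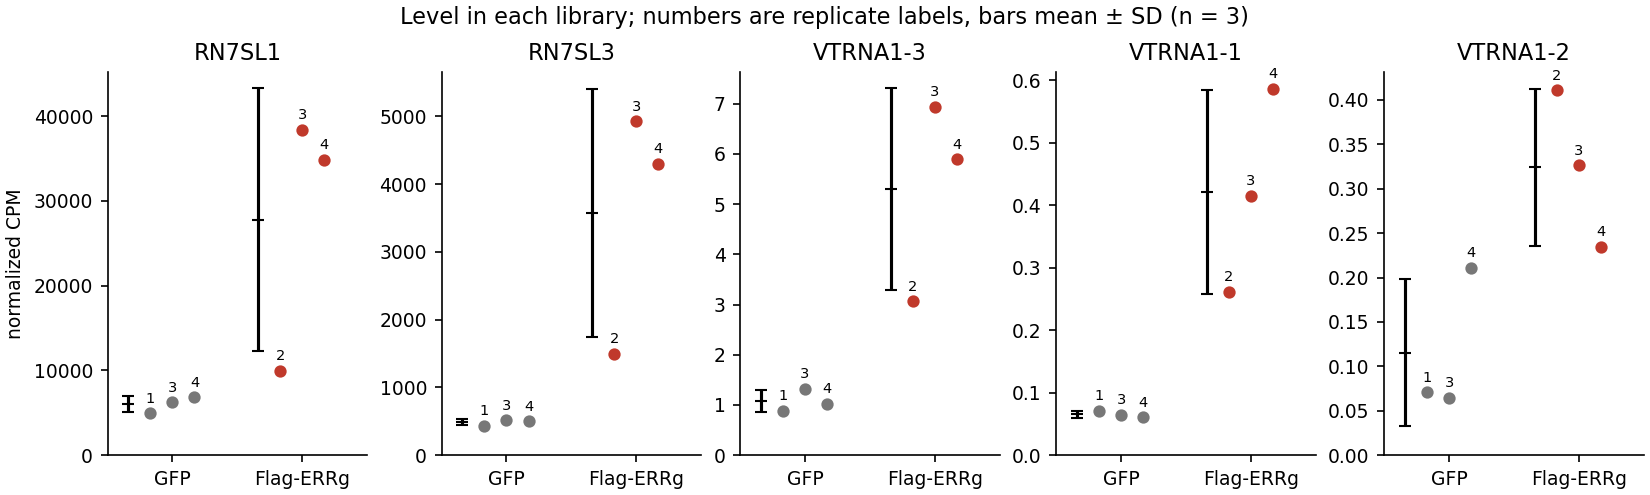
Normalized CPM (vertical axes, each starting at 0) of RN7SL1, RN7SL3, VTRNA1-3, VTRNA1-1 and VTRNA1-2 in each library, with the replicate label above each point and the mean ± SD (n = 3) as a black bar. All 3 Flag-ERRg libraries lie above all 3 GFP libraries in the 5 panels, and for RN7SL1, RN7SL3 and the vault RNA genes VTRNA1-3 and VTRNA1-1 Flag-ERRg 2 is the lowest of the 3.

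RN7SL3 (ENSG00000278771), the third full-length 7SL copy, was not among the 8 genes and was tested with all others. Its counts were 12217, 16024 and 16744 in GFP and 40117, 166093 and 146743 in Flag-ERRg, which gave 433, 517 and 505 CPM against 1498, 4927 and 4301 CPM. Flag-ERRg 2 was 3.09 times the GFP mean and Flag-ERRg 3 and 4 together 9.51 times it. RN7SL3 rose, with a log2 fold change of 2.88 (SE 0.36, adjusted p = 0.00015 by edgeR's quasi-likelihood test with Benjamini-Hochberg adjustment over all genes tested). With the no-feature share as a covariate the log2 fold change was 1.14 (SE 0.14, edgeR adjusted p = 4.8e-08). At this rule (adjusted p below 0.05 and at least 1.5-fold) 34.1% of all genes tested were called, 17.3% higher and 16.8% lower.

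Both copies have 299 bases, but of windows of 64 bases 21.6% in RN7SL1 and 74.6% in RN7SL3 occurred once in the genome. They are therefore set side by side as counts and not as levels of the RNAs. RN7SL3 counts were 8.72%, 8.28% and 7.41% of RN7SL1 counts in GFP (8.14 ± 0.666, SD, n = 3) and 15.1%, 12.8% and 12.3% in Flag-ERRg (13.4 ± 1.45, SD, n = 3). The groups did not overlap, and here Flag-ERRg 2, the library with the smallest difference in level, had the highest percentage. Together both copies took 0.610%, 0.749% and 0.817% of the reads on genes in GFP and 1.16%, 3.68% and 3.27% in Flag-ERRg. Because most short windows of RN7SL1 occur more than once in the genome and the share of reads aligned to several places differed between the groups, the part of read assignment in this percentage was not tested.

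VTRNA1-3 (ENSG00000202515), 1 of the 3 vault RNA genes of the locus, had counts of 25, 41 and 34 in GFP and 82, 234 and 201 in Flag-ERRg. In normalized CPM these were 0.885, 1.32 and 1.03 in GFP (1.08 ± 0.224, SD, n = 3) and 3.06, 6.94 and 5.89 in Flag-ERRg (5.30 ± 2.01, SD, n = 3). No Flag-ERRg library overlapped a GFP library, and the order of the treated libraries was that of RN7SL1, with 2.84 times the GFP mean in Flag-ERRg 2 and 5.95 times in Flag-ERRg 3 and 4 together. The fitted log2 fold change was 2.30 (SE 0.31), and it was 1.21 (SE 0.32) with the no-feature share as a covariate. VTRNA1-3 counts were 0.0150% to 0.0212% of RN7SL1 counts in GFP and 0.0169% to 0.0308% in Flag-ERRg, so this percentage overlapped between the groups.

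VTRNA1-1 (ENSG00000199990), a vault RNA of the same locus, had 2 counts in each GFP library and 7, 14 and 20 counts in Flag-ERRg. All GFP libraries were below 3 counts, and 3 counts in each would give a mean of 0.0979 CPM. Its mean of 0.421 CPM in Flag-ERRg was 4.30 times that floor, and Flag-ERRg 2 alone had 0.261 CPM. At counts this low the ratio is not a lower bound. VTRNA1-2 (ENSG00000202111) had 2, 2 and 7 counts in GFP and 11, 11 and 8 in Flag-ERRg, or 0.116 ± 0.0829 against 0.324 ± 0.0882 CPM (SD, n = 3). Its groups did not overlap in CPM but did as shares of the reads on genes, and Flag-ERRg 2 was its highest library. Neither gene passed the filter on low counts. VTRNA1-2 and VTRNA1-3 have the same length of 88 bases, and VTRNA1-3 was the higher of both in every library.

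RN7SL2 (ENSG00000274012), RN7SK (ENSG00000283293), RMRP (ENSG00000277027) and RPPH1 (ENSG00000277209) were listed at 0 in all 6 libraries. Taken as counts, 0 allows up to 3 counts, or 0.0879 to 0.112 CPM depending on the library, an allowance that covers counting error only. These 0 values are given as rows of the table and not as levels of the RNAs. A second gene of the table had exons on the same strand over the whole length of 3 of the 4. The part of this overlap in the 0 values was not tested. RN7SL2 lay within the exons of the lncRNA gene ENSG00000282885 and RPPH1 within those of the lncRNA gene ENSG00000259001. RN7SK at chr6:52995621-52995948 lay within a second gene model, ENSG00000202198, which was also listed at 0. RMRP at chr9:35657754-35658017 had no such partner in GENCODE 44, but genes of the table that are not in that release were not placed, so whether another row of the table lies over RMRP was not tested. In RMRP and RPPH1 all windows of 64 bases occurred once in the genome.

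Rows at 0 were also counted by such overlap over the whole table. Of 1314 genes whose exons lay wholly within same-strand exons of other genes, 1250 (95.1%) were at 0 in all libraries, against 17977 of 59105 other genes (30.4%). Among genes for short structured RNAs these shares were 389 of 401 (97.0%) and 1989 of 4711 (42.2%). A read that falls on more than 1 gene is set apart as ambiguous by the default mode of HTSeq, and the mode used here is not given in the sources used here. Whether the reads of RN7SL2, RN7SK and RPPH1 stood among the ambiguous reads was not tested.

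Taken by CPM, the groups did not overlap in RN7SL1 and VTRNA1-3, the 2 genes of the list that passed the filter, with every Flag-ERRg library higher. Among all 24500 genes tested the groups did not overlap in 58.1%, and every Flag-ERRg library was higher in 27.8%. The list was chosen on this contrast, so nothing is read from that count. The median log2 fold change of these 2 genes was 2.25, beside −0.10 over all genes tested, 0.12 over 13746 protein-coding genes and −0.35 over 990 genes for short structured RNAs. That last class was taken by annotated gene type, and pseudogenes of 7SL and 7SK were not taken out of it. The median was 1.37 over the 8 other listed Pol III RNA genes tested. Some of those passed the filter only through the group in which they were higher, so nothing is read from that median. It was 0.93 over the 11 listed Pol II structured RNA genes tested. Of the short structured RNA genes tested 7.58% were called higher and 16.1% lower, and of the protein-coding genes 38.3% were called, 25.9% higher and 12.4% lower. In bulk RNA a larger share of cells holding an RNA and more of it per cell cannot be told apart.

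**Figure D3:**
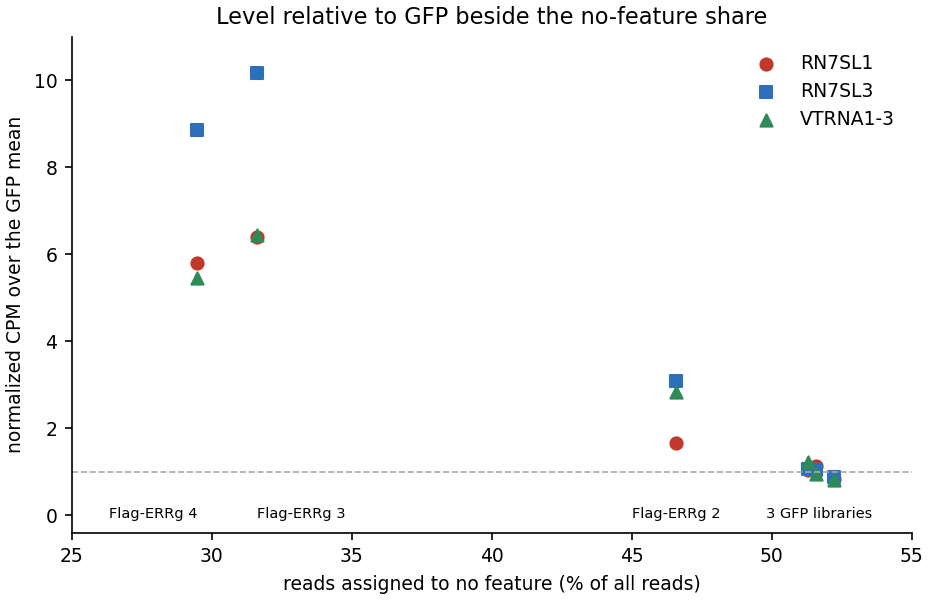
Normalized CPM relative to the GFP mean (vertical axis; dashed line, 1) of RN7SL1, RN7SL3 and VTRNA1-3 in each of the 6 libraries against the share of all reads on no feature (horizontal axis, %). The GFP libraries lie together at 51.3% to 52.2%, Flag-ERRg 2 stands at 46.6% with 1.66, 3.09 and 2.84 times the GFP mean, and Flag-ERRg 3 and 4 stand at 31.6% and 29.5% with the highest values.

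Under the other scalings, filters, tests and subsets of libraries, the log2 fold change of RN7SL1 was between 1.83 and 2.72 and that of VTRNA1-3 between 1.95 and 2.67. Scaling by the reads on genes alone gave the lowest value of both, and leaving out Flag-ERRg 2 gave the highest of both. With the covariate, 12.6% of all genes were called in place of 34.1%. RN7SL3 stood above RN7SL1 in each of these fits.

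**Figure D4:**
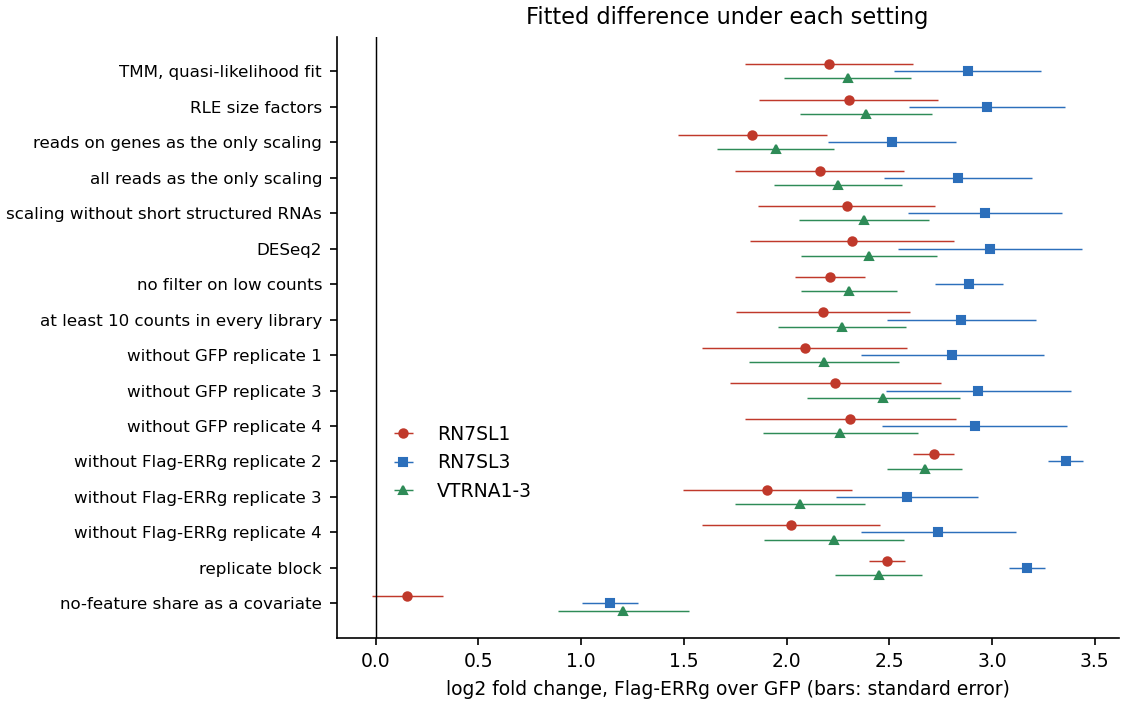
Fitted log2 fold change, Flag-ERRg over GFP (horizontal axis), with its standard error, of RN7SL1, RN7SL3 and VTRNA1-3 in each setting (rows). The points stand at or to the right of 1.83 in every setting except the covariate fit, in which RN7SL1 stands at 0.15, RN7SL3 at 1.14 and VTRNA1-3 at 1.21.

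The protein partners of the 4 particles and the Pol III machinery were examined as 60 listed genes. Of the 58 that passed the filter 26 rose and 1 fell, with a median log2 fold change of 0.39 beside 0.12 over all protein-coding genes and 25.9% of those called higher. When reads on genes were the only scaling, which moved the median of all genes from −0.10 to −0.42, 9 were called higher and 3 lower. Over all 24500 genes tested in that fit 2204 were called higher and 7555 lower. With the no-feature share as a covariate 5 of the 58 were called, all higher, beside 12.6% of all genes tested that were called in that fit. All 5 were among the 27 called without it (SRPRB, CDK9, POP7, POLR3K and SNAPC4). RPP21 and BDP1 were listed at 0 in all libraries.

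Of 8 genes for the signal recognition particle and its receptor 4 rose. SRPRB, the membrane-anchored receptor subunit, had 26.1 ± 1.55 CPM in GFP and 71.1 ± 15.9 CPM in Flag-ERRg (SD, n = 3; log2 fold change 1.45, SE 0.15, edgeR adjusted p = 7.3e-05). SRPRA, its partner in the receptor, rose by 0.67 on the log2 scale (SE 0.14, edgeR adjusted p = 0.0028), and this call was lost without Flag-ERRg 4 (0.57). SRP68 and SRP14 rose by 0.71 and 0.70 on the log2 scale (SE 0.14 each). SRP14 binds the Alu domain of 7SL RNA together with SRP9, which had 0.21 (SE 0.12) and did not pass the test. SRP19, SRP54 and SRP72 had log2 fold changes of −0.0011, 0.03 and 0.03, each with an edgeR adjusted p of at least 0.8. In the fit without the covariate no protein gene of this group reached the 2.21 of RN7SL1, which was chosen on this contrast. With the no-feature share as a covariate RN7SL1 had 0.15, and the genes of this group had −0.14 (SRP9) to 0.82 (SRPRB).

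For the 7SK particle and P-TEFb 2 of 7 genes rose. CDK9, the kinase of P-TEFb, had 52.3 ± 4.60 CPM in GFP and 108 ± 18.5 CPM in Flag-ERRg (SD, n = 3; log2 fold change 1.05, SE 0.13, edgeR adjusted p = 0.00017). MEPCE, which caps the 5′ end of 7SK RNA, rose by 0.87 on the log2 scale (SE 0.13, edgeR adjusted p = 0.00039). LARP7, which binds the 3′ end of 7SK RNA, had a log2 fold change of −0.41 (SE 0.17, edgeR adjusted p = 0.063), and it was called lower when reads on genes were the only scaling (−0.71). HEXIM1, the P-TEFb inhibitor that 7SK RNA binds, had 0.27 (edgeR adjusted p = 0.035), which is below 1.5-fold, and HEXIM2 had 0.01.

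The proteins of RNase P and RNase MRP had 5 genes higher of 10 tested. POP7, which pairs with RPP25 on both RNAs, had 12.6 ± 1.82 CPM in GFP and 39.8 ± 11.1 CPM in Flag-ERRg (SD, n = 3; log2 fold change 1.66, SE 0.20, edgeR adjusted p = 0.00013). RPP25 rose by 1.03, RPP25L by 0.98, the scaffold protein POP1 by 0.88 and POP4 by 0.82 on the log2 scale. POP5, RPP14, RPP30, RPP38 and RPP40 had log2 fold changes of 0.10 to 0.47 and were not called. RPP38 was called (0.66) without Flag-ERRg 2. The rows of RPPH1 and RMRP, at 0, give no level of the RNAs to set beside these.

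MVP, the major protein of the vault shell, was the only 1 of 3 vault protein genes called. It had 132 ± 6.31 CPM in GFP and 202 ± 37.5 CPM in Flag-ERRg (SD, n = 3; log2 fold change 0.62, SE 0.13, edgeR adjusted p = 0.0033), and the call was lost without Flag-ERRg 4 (0.51), without GFP 1 (0.58) and with all reads as the only scaling (0.57). TEP1, which binds vault RNA, had a log2 fold change of −0.05 (SE 0.09) and PARP4 of −0.09 (SE 0.09). SSB, which encodes the La protein that protects the 3′ ends of new Pol III transcripts, had 0.10 (SE 0.09, edgeR adjusted p = 0.36). The vault RNA VTRNA1-3, which was chosen on this contrast, had a fitted log2 fold change of 2.30 (1.21 with the no-feature share as a covariate). The vault protein genes had at most 0.62 in the fit without the covariate.

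**Figure D5:**
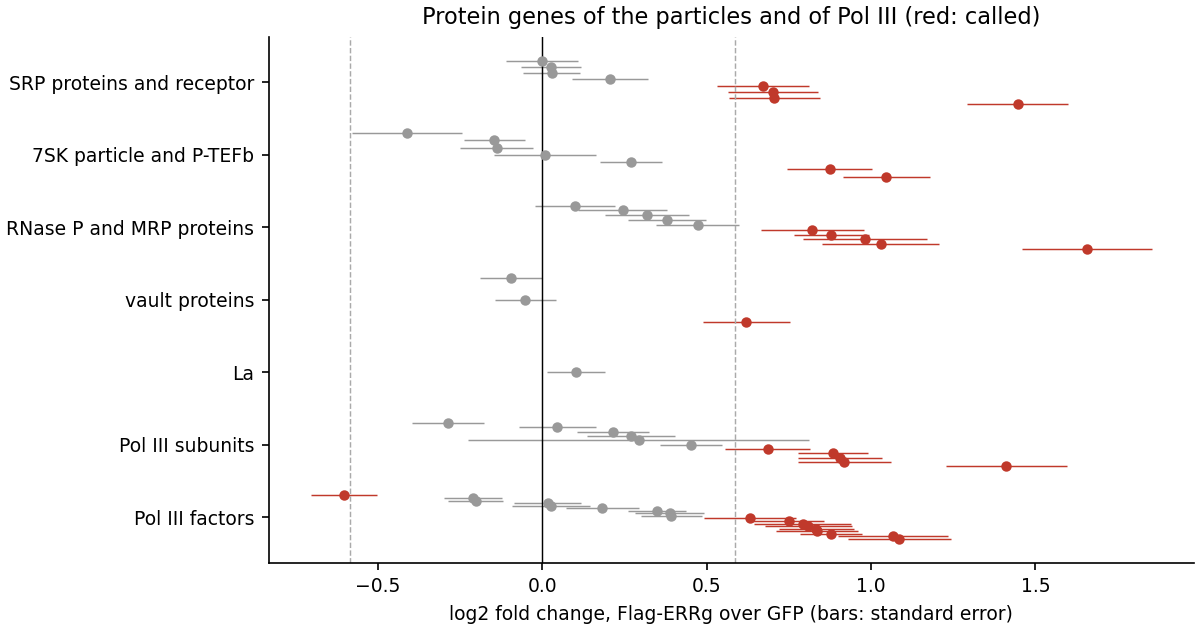
Fitted log2 fold change, Flag-ERRg over GFP (horizontal axis), with its standard error, of the 58 tested protein genes of the particles, of La and of the Pol III machinery, by group. Red points were called at an adjusted p below 0.05 and at least 1.5-fold (dashed lines), and 26 of the 27 lie to the right.

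Of 11 genes for Pol III subunits 5 rose. POLR3K had 8.03 ± 1.30 CPM in GFP and 21.4 ± 4.98 CPM in Flag-ERRg (SD, n = 3; log2 fold change 1.41, SE 0.18, edgeR adjusted p = 0.0002). POLR3D rose by 0.91, POLR3A, the catalytic largest subunit, by 0.88 and CRCP by 0.69 on the log2 scale. The second-largest subunit gene POLR3B had 0.45 (SE 0.09), below 1.5-fold, and it was called (0.60) without Flag-ERRg 2. Among 18 tested genes for initiation factors and regulators 9 rose and 1 fell. GTF3A, which is TFIIIA and binds the 5S gene and its RNA, rose by 1.09, and MAF1, the repressor of Pol III, by 1.07 on the log2 scale.

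The other factor genes that rose were SNAPC4 (0.88), GTF3C6 (0.84), GTF3C2 (0.83), GTF3C5 (0.81), BRF2 (0.79), GTF3C1 (0.75) and SNAPC2 (0.63 on the log2 scale). SNAPC4 and SNAPC2 belong to the complex that binds promoters upstream of the RNA, BRF2 acts at such promoters, and the GTF3C genes encode TFIIIC, which binds the A and B boxes. SNAPC2 lost its call without Flag-ERRg 4 (0.49), without GFP 1 (0.57) and with all reads as the only scaling (0.58). POU2F1, an activator that binds near such upstream promoters, fell by 0.60 on the log2 scale (SE 0.10, edgeR adjusted p = 0.00079), and this call was lost without Flag-ERRg 2 (−0.58), without Flag-ERRg 4 (−0.52), without GFP 1 (−0.58) and with DESeq2 (−0.51).

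Of 30 other Pol III RNA genes listed, 29 were in the table, 17 were at 0 in all libraries (16 of the 5S genes and VTRNA2-1) and 8 passed the filter. RN7SL3 and 6 more rose, beside 17.3% called higher over all genes tested and 7.58% over the short structured RNA genes tested. RNY1, a Y RNA bound by Ro60, had 5.67 ± 0.705 CPM in GFP and 9.57 ± 2.76 CPM in Flag-ERRg (SD, n = 3; log2 fold change 0.76, SE 0.21, edgeR adjusted p = 0.012). RNY3 rose by 1.55, BCYRN1 by 1.34, and the U6 genes RNU6-2, RNU6-8 and RNU6-9 by 1.32, 1.40 and 2.55 on the log2 scale, at CPM values below 6 in both groups. RNU6ATAC had 0.62 (SE 0.48) and was not called. Genes that passed only through the group in which they were higher are among these 8, so no share is read from them, and U6 genes have many near-identical copies.

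Structured RNAs made by RNA polymerase II were listed for comparison. Of 21 such genes 7 were at 0 in all libraries, 5 of those 7 wholly within same-strand exons of other genes, and 6 of 11 tested rose. Over all genes tested 17.3% were called higher, and over the short structured RNA genes tested 7.58%. The U3 RNA gene SNORD3A had 3055 ± 164 CPM in GFP and 10417 ± 5363 CPM in Flag-ERRg (SD, n = 3; log2 fold change 1.77, SE 0.34, edgeR adjusted p = 0.0017). Its counts were 86078, 99832 and 95948 in GFP and 124291, 513839 and 387790 in Flag-ERRg, so that Flag-ERRg 2 was again the lowest treated library. The U1 gene RNU1-1 rose by 1.42, RNU5D-1 by 1.27, RNU5F-1 by 1.09, RNU5B-1 by 0.94 and RNU1-2 by 0.89 on the log2 scale. Their median log2 fold change over the 11 tested was 0.93. Of 22 listed ribosomal RNA genes 5 were in the table by symbol, and all 5 rose, the 5.8S genes RNA5-8SN2 by 2.18, RNA5-8SN3 by 1.55 and RNA5-8SN1 by 1.16, and the mitochondrial MT-RNR1 by 1.05 and MT-RNR2 by 0.98 on the log2 scale.

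The many pseudogenes derived from 7SL and 7SK did not show the level of RN7SL1. Of 677 RN7SL pseudogenes 139 passed the filter, 5 rose and 24 fell, and the median log2 fold change was −0.37, beside −0.35, 7.58% called higher and 16.1% called lower over all short structured RNA genes tested. These pseudogenes were not taken out of that class. Their summed level was 189, 199 and 198 CPM in GFP and 192, 196 and 176 CPM in Flag-ERRg, so the groups overlapped. Of 293 RN7SK pseudogenes 49 passed the filter, 5 rose and 10 fell, the median log2 fold change was −0.32, and the summed level was 75.5, 79.1 and 77.4 CPM in GFP and 78.1, 89.1 and 78.5 CPM in Flag-ERRg. The pseudogene RN7SL4P, chosen here after its values were seen, had 402, 430 and 450 counts in GFP and 527, 2267 and 1840 in Flag-ERRg (log2 fold change 1.76, edgeR adjusted p = 0.0017). RN7SKP80, chosen in the same way, had 138, 228 and 214 counts in GFP and 211, 852 and 599 in Flag-ERRg (log2 fold change 1.44, edgeR adjusted p = 0.0052). In RN7SL4P and RN7SKP80 Flag-ERRg 2 lay nearer to the GFP libraries than Flag-ERRg 3 and 4 did. Other pseudogenes that rose did not all share this order. RN7SKP195 had 6, 3 and 2 counts in GFP and 33, 19 and 18 in Flag-ERRg 2, 3 and 4 (log2 fold change 2.62). RN7SL164P had 5, 9 and 13 counts in GFP and 32, 20 and 14 in Flag-ERRg (log2 fold change 1.29). In both of these, at lower counts, Flag-ERRg 2 was the highest library.

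The genes most like the mean profile of RN7SL1 and VTRNA1-3 were found among 16100 genes whose counts averaged 50 or more, by the root mean square difference of centred log2 CPM over the 6 libraries. The mean profile stood at −0.26, 0.18 and 0.07 in GFP and 1.11, 2.66 and 2.47 in Flag-ERRg, on the log2 scale relative to the GFP mean. The nearest gene was ATP5MC3, which encodes subunit c of ATP synthase, at a difference of 0.195 and with 1.49, 2.39 and 2.46 in Flag-ERRg. UQCR10 (0.235), MMP3 (0.243), MRPL41 (0.258) and RAMP1 (0.263) followed. In all 5, as in the profile, Flag-ERRg 2 was the lowest treated library, and in each of them it stood higher than in the profile.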

How the data were processed

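The deposited table holds raw counts per gene, which the authors made with HTSeq; STAR, Trim Galore, CASAVA, DESeq2 and GRCh38 are named in the submitters' processing notes. The annotation, strand setting, counting mode and read length are not given in the sources used here. Of 67060 identifiers, 60419 (90.1%) matched GENCODE 44, and the others held 0.153% of counts. The 5 summary entries were kept out of library sizes. No column was left unmapped.

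The fit to the counts used edgeR 4.0.16 under R 4.3.3 (filterByExpr, TMM, quasi-likelihood test, Benjamini-Hochberg). Calls needed an adjusted p below 0.05 and at least 1.5-fold. CPM are scaled by TMM, and a prior count of 2 was added before logs. Standard errors are the log2 fold change over the root of F. On simulated data with 200 changed genes of 24500, edgeR recovered 190 with 3 false calls and DESeq2 177 with 0.

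The 8 RNAs and all lists were chosen with earlier results of these data known. The 8 RNAs were given whole. In the lists, genes called and those that bind one of the RNAs were named, together with the 5 genes nearest in profile. The profile and the median over the 8 could use the 2 that passed the filter. Single pseudogenes and the RPP38 and POLR3B values without 1 library were picked after their values were seen. Windows and motifs were read from GRCh38 with Python 3.11.15, promoters from RefSeq. The alternatives were RLE or library-size scalings, scaling without short RNAs, DESeq2 1.42.0, other filters, each library left out, a replicate block and the no-feature share as a covariate. Some listed items are not reported here.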

Additional observations from a re-analysis of the deposited data

How the results depend on the processing

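Depth did not limit RN7SL1, whereas VTRNA1-1 and VTRNA1-2, at 20 counts or fewer, did not pass the filter used. The no-feature share separated the groups, so a fit with it as a covariate has few libraries to tell both apart. With that covariate RN7SL1 had a log2 fold change of 0.15 and VTRNA1-3 of 1.21, their median was 0.680, the partner and factor genes called were 5 (5 higher, 0 lower), and the genes called over the table were 3096 (1773 higher and 1323 lower). Without it these values were 2.21, 2.30, 2.25, 27 (26 higher, 1 lower) and 8351 (4234 higher and 4117 lower). With reads on genes as the only scaling 12 partner and factor genes were called (9 higher, 3 lower), 10 of them among the 27, and over all genes 2204 were higher and 7555 lower. The single lower call, POU2F1, was lost (0 lower) with RLE size factors, with scaling without short structured RNAs and with DESeq2, and the replicate block gave 2 lower, POU2F1 and LARP7 (−0.66). In all these settings the cause was not tested.

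Leaving out each library in turn gave 1.91 to 2.72 for RN7SL1, 2.06 to 2.67 for VTRNA1-3, 1.99 to 2.69 for their median, 23 to 28 partner and factor genes (23 to 28 higher, 0 to 1 lower) and 6738 to 10962 genes over the table (3710 to 5820 higher, 2895 to 5142 lower). In the fit with the replicate number as a block RN7SL1 had 2.49 and VTRNA1-3 2.45. The labels do not say that equal numbers were paired, and the correlations of deviations were 0.075 for replicates 3 and −0.0001 for replicates 4. Of the 27 partner and factor genes called, 27 kept their call with the block, 26 with DESeq2, 25 with all reads as the only scaling and 5 with the covariate, and RN7SL3 kept its call in each of these settings.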
